A study of Mus musculus with 7 samples.

Results

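The genes described here are 10 genes of iron uptake, reduction, storage, export and siderophore binding: Tfrc, Trf, Slc11a2, Steap4, Fth1, Ftl1, Slc40a1, Cp, Hmox1 and Lcn2. They were chosen by symbol from the 32531 gene rows of each count file, with their levels in immunopurified against unbound RNA already known. That contrast is therefore given for them as a description, without a test. All 10 had a row and passed the filter on low counts, which 17654 genes passed in all.

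The RNA came from the midbrain of untreated adult control mice of a single transgenic line, Stard8-TRAP ES2342. In these mice the ribosomal protein Rpl10a carries an EGFP tag and is produced under the control of Stard8 sequences. Anti-EGFP beads collect tagged polysomes from homogenate, and sequencing then covered what the beads held (IP, 3 libraries numbered 1, 2 and 4) and what they left behind (unbound, 4 libraries numbered 1 to 4). All libraries share the transgene. IP number 3 was not analysed here. The sources used here do not state sex, exact age or how many animals a library holds. Nothing in the labels says that libraries of a group came from separate animals, so errors and p-values measure the spread between these libraries, which may be technical.

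Iron circulates as ferric iron bound to transferrin, and cells take the complex up through the transferrin receptor. In the endosome the iron is reduced and carried into the cytosol by a divalent metal transporter. Surplus iron is stored inside ferritin, a shell of heavy and light chains, or leaves the cell through ferroportin, after which ferroxidases such as ceruloplasmin oxidise it again. In the brain, endothelial cells of the blood-brain barrier carry transferrin receptor, and oligodendrocytes and choroid plexus make much of the transferrin. Iron regulatory proteins bind a short hairpin, the iron-responsive element, in the untranslated ends of several of these mRNAs. There they block translation from the 5′ end or protect the mRNA from decay at the 3′ end.

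Hairpins of this kind are shown for the members in which a strict pattern found them. The pattern searched in GENCODE M21 transcripts (build GRCm38, which is mm10) was a CAGTGN loop whose 5 preceding bases pair with the 5 following ones, G-T pairs allowed, with an unpaired C just before that stem. Fth1, Ftl1 and Slc40a1 held it in the 5′ untranslated region, as did 31 of 20899 genes with such a region (0.148%). Tfrc held 4 copies in its 3′ untranslated region, where 129 of 21028 genes had at least 1 (0.613%). The other 6 members had no match in any coding transcript. The pattern misses hairpins that depart from it, so having no match does not show that a gene lacks the element. Of the other iron genes listed further on, Alas2 had a match in the 5′ and Bola3 in the 3′ untranslated region. Capitals mark the unpaired C and the 6-base loop, and each sequence is read 5′ to 3′ on the strand of its gene.
Fth1, chr19:9982732-9982760, plus strand: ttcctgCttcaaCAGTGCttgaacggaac
Ftl1, chr7:45459779-45459807, minus strand: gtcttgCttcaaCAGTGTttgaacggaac
Slc40a1, chr1:45925465-45925493, minus strand: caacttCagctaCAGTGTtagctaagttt
Tfrc, chr16:32631219-32631247, plus strand: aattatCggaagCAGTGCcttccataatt
Tfrc, chr16:32631598-32631626, plus strand: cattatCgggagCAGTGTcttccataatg
Tfrc, chr16:32631663-32631691, plus strand: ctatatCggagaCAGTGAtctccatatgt
Tfrc, chr16:32631710-32631738, plus strand: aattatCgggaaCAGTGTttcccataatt

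Counts in genes ranged from 52052340 to 76114634 per library. Levels are counts per 1000000 of the effective library size (CPM), which is the sum over genes times a TMM factor, and 3 counts corresponded to 0.0376 to 0.059 CPM. Log2 fold changes are IP minus unbound from edgeR's quasi-likelihood fit over all genes. Their standard errors were worked back from that fit, as the size of the log2 fold change over the square root of its F statistic. Stard8 had 227 to 440.2 CPM in IP and 3.51 to 4.89 CPM in unbound. Of the genes tested, 39.4% passed an adjusted p of 0.05 in edgeR's test, 20.5% as higher and 18.9% as lower in IP, and the median log2 fold change was -0.10. The groups did not overlap in 47.7% of genes. IP libraries were sequenced in lanes 2 and 5 and unbound libraries in lanes 1 and 3, so lane and group cannot be told apart. The series is labelled as profiling neurons. All 12 pan-neuronal markers were lower in IP, with a summed level of 3810 to 8244 CPM against 14439 to 22330 CPM in unbound. All 14 endothelial markers (2067 to 2703 against 23.5 to 29.3 CPM summed), all 12 pericyte and smooth muscle markers (3963 to 5659 against 35.1 to 51.7) and all 14 microglia and macrophage markers (1534 to 1624 against 47.7 to 87.2) were higher. No marker in these 4 lists was at 0 in every IP library. Their part in the values below was not tested. IP and unbound are fractions of homogenate, so a marker higher in IP does not show more cells of its type. Cell number, RNA per cell and the share of RNA held by the beads cannot be told apart.

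The exporter Slc40a1, the ferroxidase Cp, the heme enzyme Hmox1, the reductase Steap4 and the siderophore binder Lcn2 stood higher in IP. The ferritin heavy chain Fth1 stood lower, and the transferrin receptor Tfrc differed by less than its spread. The 5 higher genes stood above every unbound library (25.1% of all genes did) and Fth1 below every one (22.7%), and 4 overlapped. Nothing is read from these counts, since the contrast chose the genes. The median of the 10 log2 fold changes was 1.44. The range ran from -2.27 for Fth1 to 9.34 for Steap4.

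**Figure D1:**
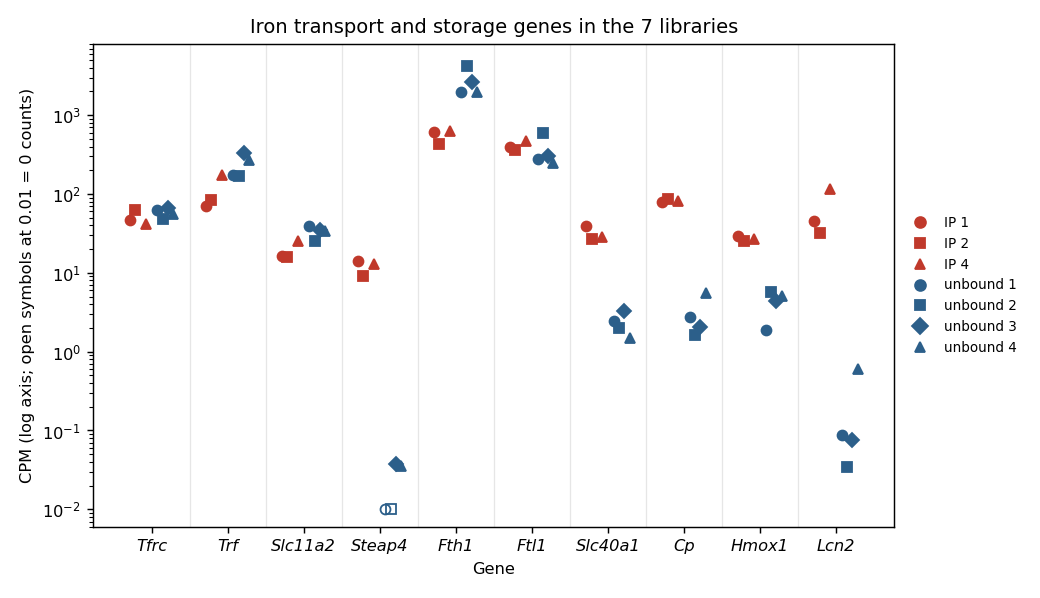
CPM (log axis) of the 10 iron genes, 1 symbol per library, IP in red and unbound in blue, the shape giving the replicate number and open symbols marking 0 counts. Steap4, Slc40a1, Cp, Hmox1 and Lcn2 sit above every unbound library, Fth1 sits below, and Tfrc, Trf, Slc11a2 and Ftl1 overlap.

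Among the uptake genes, Tfrc (chromosome 16, 32608920 to 32632794) encodes transferrin receptor 1. It measured 46.5, 62.7 and 41.1 CPM in IP 1, 2 and 4 and 62.5, 48.0, 67.4 and 55.4 CPM in unbound 1 to 4. The groups overlapped, with the second highest of all 7 values in IP 2 and the lowest in IP 4. The log2 fold change was -0.22 ± 0.23, within the spread of the libraries. The 14 endothelial markers, from vessel cells that also carry the receptor, had a median log2 fold change of 6.99.

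Trf (chromosome 9, 103204001 to 103230444) encodes transferrin, the iron carrier itself. It measured 70.6, 85.0 and 175 CPM in IP 1, 2 and 4, and 174, 171, 331 and 273 CPM in unbound 1 to 4. IP 4 reached the level of unbound 1 and 2, and the other IP libraries stood below all unbound ones. The log2 fold change was -1.11 ± 0.37, and ran from -1.60 without IP 4 to -0.76 within the index GTGAAA described further on. The 12 oligodendrocyte markers summed to 1260, 1447 and 1955 CPM in IP 1, 2 and 4, and to 5690, 6813, 7870 and 5991 CPM in unbound 1 to 4. The sum was highest in IP 4 and in unbound 3, as Trf was, but unbound 2 was second highest for the sum and lowest for Trf. Of these markers 11 were lower in IP and none was at 0 in every IP library. The choroid plexus and ependymal sum was also highest in IP 4, at 320.1 CPM against 113 to 180.1 CPM in the other IP libraries and 62.6 to 82.5 CPM in unbound. The part of these cells in the level of Trf was not tested.

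Slc11a2 (chromosome 15, 100387898 to 100425072) encodes divalent metal transporter 1, which moves ferrous iron out of endosomes. It measured 16.6, 15.6 and 25.3 CPM in IP and 39.3, 25.0, 34.9 and 33.6 CPM in unbound. Only IP 4 and unbound 2 overlapped, at nearly the same level. The log2 fold change was -0.79 ± 0.27, and it ran from -1.04 without IP 4 to -0.42 within GTGAAA. Another gene with its own row, Gm5475, overlaps it on the opposite strand. The strand setting of the counting is not given, so reads there may be lost or misplaced. Over whole libraries, 1.43% to 1.63% of everything counted in IP and 7.26% to 11.5% in unbound was ambiguous between genes. Such loss may thus differ between the groups, and how much of it fell on this gene is not known.

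The reductase Steap4 (chromosome 5, 7960457 to 7982213) is a membrane metalloreductase that turns ferric into ferrous iron. It had 1054, 525 and 666 counts in IP 1, 2 and 4, or 14.1, 9.15 and 13.1 CPM. Unbound 1 and 2 had 0 counts and unbound 3 and 4 had 2 each, all under the floor of 3 counts. From 2245 IP counts against 4 unbound counts the pooled ratio was 758, with a 95% exact interval for counting error of 296 to 2783. The fitted log2 fold change was 9.34 ± 0.73, rank 16 of all genes, and depends on the prior count at such low levels.

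The 2 ferritin subunits differed from each other. Fth1 (chromosome 19, 9980598 to 9985098) encodes the heavy chain, which has the ferroxidase activity. It measured 606, 432 and 636 CPM in IP and 1993, 4164, 2620.2 and 1993 CPM in unbound. The lowest unbound value was 3.13 times the highest IP value, and the log2 fold change was -2.27 ± 0.35. Ftl1 (chromosome 7, 45457944 to 45459884) encodes the light chain, which helps iron mineralise inside the shell. It measured 393, 366 and 472 CPM in IP and 275, 599, 301 and 247 CPM in unbound. Here 3 unbound libraries lay below all IP libraries and unbound 2 lay above them. The log2 fold change was 0.21 ± 0.32, and 0.58 without unbound 2.

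The ratio of the 2 subunits separated the groups with little spread, and Fth1 alone already separated them. Per kilobase of the longest principal transcript in GENCODE M21, the counts of Fth1 were 0.999, 0.765 and 0.874 times those of Ftl1 in IP 1, 2 and 4. In unbound 1 to 4 they were 4.69, 4.50, 5.64 and 5.22 times as high. The lengths used were 1494 bases for Fth1 and 968 for Ftl1, and the value of the ratio rests on them. A shorter Fth1 transcript would raise it in every library alike. Fth1, Ftl1 and Slc40a1 carry the hairpin in the 5′ untranslated region, shown above, and their log2 fold changes were -2.27, 0.21 and 3.76. The part of the hairpin in these values was not tested. Ferritin has processed copies elsewhere in the genome, and alignments marked as not unique were set aside in counting. They made up 33.0% to 39.6% of everything counted in IP and 17.6% to 34.6% in unbound, and how many belonged to ferritin was not tested. These shares are over whole libraries, so how far they affect Fth1 and Ftl1 counts, and the difference between groups, is not known. Both genes together took 0.0873% to 0.108% of the counts in genes in IP and 0.225% to 0.408% in unbound.

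**Figure D2:**
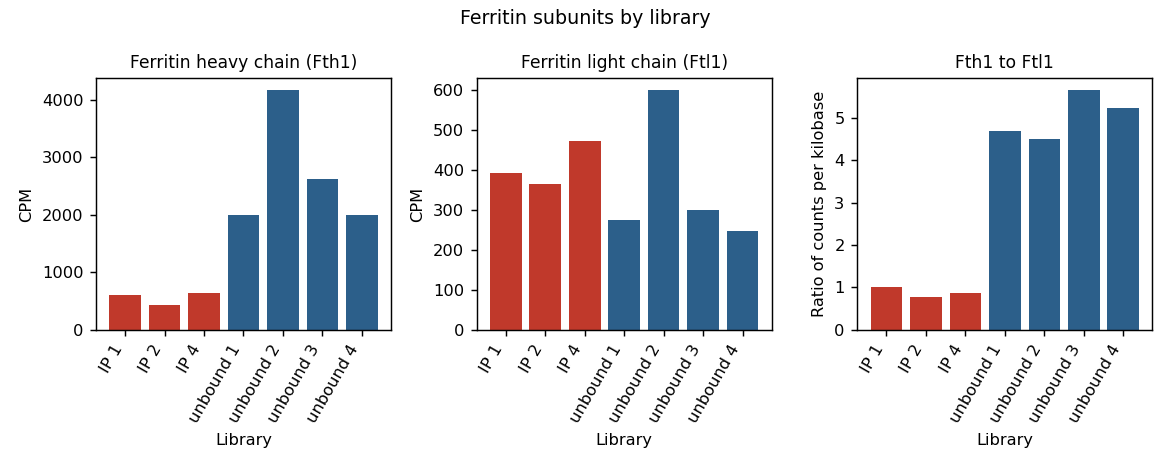
CPM of Fth1 and Ftl1 and the ratio of their counts per kilobase, 1 bar per library from 0, IP in red and unbound in blue. Fth1 is low in all 3 IP libraries, Ftl1 overlaps, and the ratio is 0.765 to 0.999 in IP against 4.50 to 5.64 in unbound.

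Both export genes were higher in IP. Slc40a1 (chromosome 1, 45908068 to 45926523) encodes ferroportin, the iron exporter of cells. It measured 39.0, 26.5 and 28.1 CPM in IP and 2.44, 1.99, 3.26 and 1.5 CPM in unbound. The lowest IP value was 8.13 times the highest unbound value, and the log2 fold change was 3.76 ± 0.33. Cp (chromosome 3, 19957054 to 20009145) encodes ceruloplasmin, a copper-carrying ferroxidase. It measured 79.1, 87.0 and 81.6 CPM in IP, the smallest relative spread of the 10 genes (coefficient of variation 4.87%). In unbound it measured 2.78, 1.63, 2.05 and 5.58 CPM, the last in unbound 4, and the log2 fold change was 4.78 ± 0.41. Its gene overlaps Hps3 on the opposite strand, with the same limit as for Slc11a2. The astrocyte markers, from cells known to carry ceruloplasmin, summed to 3189 to 3654 CPM in IP and 1675 to 2741 CPM in unbound, 6 of 10 were higher and none was at 0 in every IP library. Their part was not tested.

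The ratio of the import receptor to the exporter followed from the difference in Slc40a1. Per kilobase, Tfrc counts were 0.822, 1.63 and 1.01 times those of Slc40a1 in IP 1, 2 and 4, and 17.6, 16.6, 14.2 and 25.4 times in unbound 1 to 4. Tfrc alone differed between groups by less than its spread, and Slc40a1 alone already separated them, as given above. The ratio therefore restates the Slc40a1 contrast, and nothing further is read from it.

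Hmox1 (chromosome 8, 75093621 to 75100589) encodes heme oxygenase 1, the inducible enzyme that frees iron from heme. It measured 29.0, 25.3 and 26.6 CPM in IP, and 1.89, 5.63, 4.37 and 5.08 CPM in unbound. The IP values lay close together, and the lowest was 4.48 times the highest unbound value. The log2 fold change was 2.67 ± 0.36, the smallest of the 5 higher members.

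Lcn2 (chromosome 2, 32384633 to 32388252) encodes lipocalin 2, a secreted protein that binds iron-laden siderophores and is made by neutrophils and by inflamed tissue. It had 3369, 1827 and 5812 counts in IP 1, 2 and 4, or 44.9, 31.8 and 114 CPM, the widest relative spread of the members in IP (coefficient of variation 69.5%). In unbound 1 to 4 it had 7, 2, 4 and 34 counts, or 0.0877, 0.0344, 0.0759 and 0.600 CPM. The pooled ratio was 316, with a 95% exact counting interval of 238 to 431, and the fitted log2 fold change was 8.33 ± 0.85, or 9.84 without unbound 4 and 7.61 without IP 4. IP 4 was the highest IP library and unbound 4 the highest unbound one. The sum of the 10 fibroblast and meningeal markers was highest in the same 2 libraries. It was 582, 552 and 1434 CPM in IP 1, 2 and 4 and 309, 859, 741 and 902 CPM in unbound 1 to 4. But unbound 2 was second highest for the sum and lowest for Lcn2, and unbound 1 was lowest for the sum and second highest for Lcn2. Of these 10 markers 7 were higher in IP and none was at 0 in every IP library. The choroid plexus and ependymal sum, given beside Trf, was highest in IP 4 but lowest in unbound 4. The part of these cells in the level of Lcn2 was not tested.

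The neutrophil markers did not follow as a list. S100a8 and S100a9, calcium-binding proteins of neutrophils, were highest in IP 4 and unbound 4. S100a9 measured 2.05, 1.73 and 11.0 CPM in IP 1, 2 and 4 and had 0, 1, 4 and 33 counts in unbound 1 to 4. S100a8 measured 1.32, 0.488 and 5.13 CPM in IP and had 0, 0, 3 and 9 counts in unbound. The 11 neutrophil markers with a row summed to 18.9 to 46.8 CPM in IP, highest in IP 4, and 3.44 to 4.84 CPM in unbound, highest in unbound 3, and 3 of the 4 that were tested were higher. Csf3r, which microglia also express, made up most of that sum, with 17.2, 15.9 and 25.4 CPM in IP and 3.32, 2.75, 4.46 and 2.17 CPM in unbound, where unbound 4 was lowest. Mpo had 6, 4 and 23 counts in IP and 0, 39, 10 and 18 in unbound. Ngp had 0, 0 and 211 counts in IP, all in IP 4, and 14, 0, 1 and 6 in unbound. Elane and Stfa2 had 0 counts in every library, and Camp, Retnlg and Mmp8 had at most 34. The part of neutrophils in the level of Lcn2 was not tested.

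**Figure D3:**
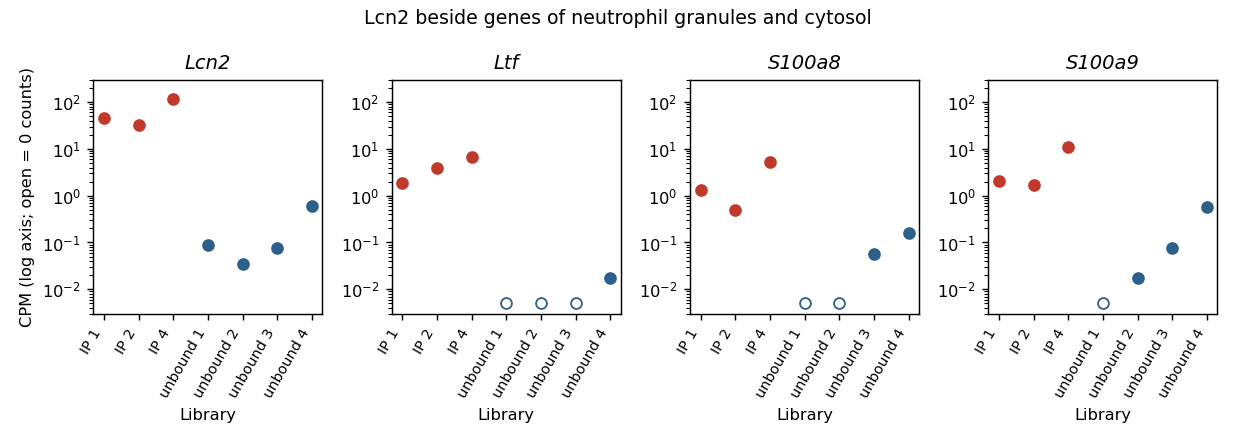
CPM (log axis) of Lcn2, Ltf, S100a8 and S100a9 in each library, IP in red, unbound in blue, open symbols for 0 counts. All 4 genes are highest in IP 4 within IP and in unbound 4 within unbound, where Ltf has 1 count. Of the neutrophil markers not shown, Csf3r, Mpo, Ngp and Mmp8 are not highest in unbound 4. Camp and Cxcr2 are highest in IP 4 and unbound 4, at low counts.

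Levels can be set between genes only per length, here as CPM per kilobase of the longest principal transcript. In IP the order was Ftl1 (424 ± 56.7, SD, n = 3), Fth1 (374 ± 73.7), Lcn2 (69.6 ± 48.4), Trf (42.9 ± 22.1), Cp (20.5 ± 0.997), Hmox1 (17.2 ± 1.20), Tfrc (10.3 ± 2.30), Slc40a1 (9.27 ± 2.02), Slc11a2 (6.34 ± 1.76) and Steap4 (3.84 ± 0.824). Neighbours that differed by more than the sum of their SDs were Fth1 and Lcn2, Cp and Hmox1, and Hmox1 and Tfrc. In unbound the order was Fth1 (1802 ± 686, SD, n = 4), Ftl1 (367 ± 169), Trf (92.3 ± 30.5), Tfrc (11.9 ± 1.73), Slc11a2 (11.0 ± 1.98), Hmox1 (2.70 ± 1.05), Cp (0.747 ± 0.441), Slc40a1 (0.683 ± 0.222), Lcn2 (0.218 ± 0.293) and Steap4 (0.0058 ± 0.00671). Tfrc and Slc11a2, and each neighbouring pair from Cp down, lay within their spread. The ferritin chains led in both kinds of RNA. In IP their order was within the spread and rests on the transcript lengths, since in CPM Fth1 (558 ± 110) stood above Ftl1 (410.4 ± 54.9).

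The libraries carried 2 index sequences, ACAGTG (IP 1 and 2, unbound 1 and 2) and GTGAAA (IP 4, unbound 3 and 4). The log2 fold changes within ACAGTG and within GTGAAA were -2.57 and -1.84 for Fth1, -1.15 and -0.76 for Trf, and -1.0 and -0.42 for Slc11a2. They were 3.88 and 3.58 for Slc40a1, 5.23 and 4.43 for Cp, 2.85 and 2.51 for Hmox1, and 9.19 and 8.38 for Lcn2. For Steap4 no fold is given within an index, since each unbound library had 0 or 2 counts. Tfrc had -0.02 and -0.56. Ftl1 changed sign, with -0.20 and 0.80. Within GTGAAA the lone IP library was assumed to vary like the unbound ones.

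The index itself was compared within groups, a contrast that did not choose the genes. In edgeR's quasi-likelihood test with group as a covariate, 0 genes (0%) passed, 2017 genes (11.4%) had an unadjusted p under 0.05, and DESeq2 called 291 and limma voom 0. Trf was higher under GTGAAA in both groups, by 0.95 ± 0.20 on the log2 scale (edgeR adjusted p = 0.305). Its adjusted p was 0.00551 in DESeq2 and 0.038 without unbound 1 in edgeR, and lay between 0.0727 and 0.839 under the other alternatives. Lcn2 had 1.87 ± 0.53 (edgeR adjusted p = 0.346, DESeq2 adjusted p = 0.0202, the other alternatives between 0.0694 and 0.839). For Lcn2, IP 4 was above IP 1 and 2, but unbound 3 lay below unbound 1. The other 8 members had index log2 fold changes between -0.26 and 0.74 and did not pass in any setting run.

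Beyond these 10 genes, a list of 90 other genes of iron and heme handling was drawn up by function. Of these 87 had a row, 79 were tested, 17 were higher and 19 lower in IP by edgeR's test, beside 20.5% and 18.9% of all genes. The list's median log2 fold change was -0.20, against -0.10 for all genes. The lower count was 10 without IP 1 and 11 without IP 2, and 20 was the highest count of higher genes, without unbound 2. Counts by role below are small and stand beside the same shares of all genes, and nothing is read from them about a role. Adjusted p-values below are from edgeR over all genes tested.

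Uptake genes split, 3 higher and 3 lower of 10, beside 20.5% and 18.9% of all genes. Slc39a8, a zinc transporter family member that also carries iron, rose from 0.736 ± 0.315 (SD, n = 4) to 44.2 ± 6.46 CPM (n = 3), a log2 fold change of 5.91 ± 0.39 (edgeR adjusted p = 2.39e-06). Ltf, the iron-binding milk and neutrophil protein lactotransferrin, had 139, 226 and 334 counts in IP 1, 2 and 4 and 1 count in unbound 4 alone. Its pooled ratio was 944, with a 95% exact counting interval of 169 to 37325 (edgeR adjusted p = 5.17e-05). The sorting nexin Snx3, the most abundant of the group, which returns transferrin receptor to the cell surface, rose by 1.14 ± 0.28 (edgeR adjusted p = 0.00948, and 0.0939 within ACAGTG). The endocytic receptor Lrp2 fell by 3.88 ± 1.31 on the log2 scale (edgeR adjusted p = 0.0367) from a low level of 0.983 ± 1.15 CPM in unbound. Without IP 1, IP 2, IP 4 or unbound 1 its adjusted p was between 0.0646 and 0.108.

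The other reductases split. Of 6 tested, 2 rose, as Steap4 stood higher, and 3 fell. Steap3, the endosomal ferrireductase of red cell precursors, rose from 1.05 ± 0.591 to 10.9 ± 2.58 CPM, a log2 fold change of 3.38 ± 0.49 (edgeR adjusted p = 0.000397). Steap2, of the same family, fell from 83.0 ± 27.8 to 21.2 ± 8.41 CPM, a log2 fold change of -1.97 ± 0.36 (edgeR adjusted p = 0.00183). The ferric reductase Frrs1 rose by 2.17 ± 0.50 (edgeR adjusted p = 0.00623, and 0.0962 within ACAGTG). Steap1 did not pass the filter.

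Of 3 further storage genes tested, 1 rose. Ncoa4, the receptor that delivers ferritin to autophagosomes, rose from 26.4 ± 6.06 to 44.4 ± 3.30 CPM, by 0.75 ± 0.24 (edgeR adjusted p = 0.0284). Without IP 1, IP 2, IP 4 or unbound 3 its adjusted p was between 0.0694 and 0.0823. The iron chaperone Pcbp2, the most abundant, had 181 ± 19.0 CPM in IP and 191 ± 21.04 CPM in unbound, a log2 fold change of -0.07 ± 0.21 (edgeR adjusted p = 0.815).

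Among 3 further export genes tested, the membrane ferroxidase Heph rose from 1.98 ± 1.22 to 5.47 ± 1.27 CPM, by 1.46 ± 0.50 (edgeR adjusted p = 0.0381). Leaving out any library other than unbound 1 raised its adjusted p to between 0.0544 and 0.148. App, the amyloid precursor protein, which has been linked to ferroportin, fell from 448 ± 96.1 to 209.6 ± 66.7 CPM, a log2 fold change of -1.10 ± 0.29 (edgeR adjusted p = 0.0126). Without IP 1 or IP 2 its adjusted p was between 0.0691 and 0.073.

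Heme genes gave 4 higher and 3 lower of 19, beside 20.5% and 18.9% of all genes. Cd163, the scavenger receptor of macrophages for hemoglobin bound to haptoglobin, rose from 0.894 ± 0.532 to 35.0 ± 4.06 CPM, by 5.29 ± 0.43 (edgeR adjusted p = 7.85e-06). Abcg2, an efflux pump of the vessel wall that also exports heme and porphyrins, rose from 4.38 ± 0.993 to 88.7 ± 21.9 CPM, by 4.34 ± 0.29 (edgeR adjusted p = 2.49e-06). Cpox, an enzyme of heme synthesis, fell by 1.20 ± 0.21 (edgeR adjusted p = 0.00139). Alas2, the erythroid first enzyme of heme synthesis, fell by 2.35 (edgeR adjusted p = 0.0209, and 0.0567 to 0.0843 without IP 1 or unbound 3). Of the 4 erythroid markers tested, from cells known for Alas2, 3 were lower in IP. Their part was not tested. The heme transporter Slc48a1 fell by 0.65 (edgeR adjusted p = 0.0415, and 0.0796 to 0.170 without IP 1, IP 2, IP 4 or unbound 3). The hemopexin receptor Lrp1 had 105 ± 25.1 CPM in IP and 121 ± 44.6 CPM in unbound (edgeR adjusted p = 0.632).

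Regulators of iron gave 6 higher and 2 lower of 17, beside 20.5% and 18.9% of all genes. Epas1, the hypoxia-inducible factor that is most abundant in endothelium, rose from 127 ± 26.1 to 2154 ± 171 CPM, by 4.08 ± 0.27 (edgeR adjusted p = 2.54e-06). Hfe, a partner of transferrin receptor 1 at the cell surface, rose from 2.18 ± 0.960 to 24.4 ± 0.965 CPM, by 3.48 ± 0.37 (edgeR adjusted p = 5.12e-05). Nfe2l2, which encodes NRF2, an activator of Hmox1 and the ferritin genes, rose by 3.32 ± 0.33 (edgeR adjusted p = 3.04e-05). Against the majority, Hfe2, the hemojuvelin gene, fell by 2.33 (edgeR adjusted p = 0.035, and 0.106 to 0.124 without IP 1, IP 2 or unbound 2). Its log2 fold change was -3.48 within ACAGTG but -0.45 within GTGAAA. Hfe2 also lost the call with limma voom, the replicate block and the index as a covariate. Neo1, the hemojuvelin receptor, fell by 0.93 (edgeR adjusted p = 0.0205, and 0.0503 to 0.102 without IP 1, IP 2, unbound 3 or unbound 4).

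Mitochondrial iron import and iron-sulfur cluster genes gave 0 higher and 6 lower of 19, beside 20.5% and 18.9% of all genes. Their median log2 fold change was -0.51. Lyrm4, a subunit of the complex that builds the clusters, fell by 1.64 (edgeR adjusted p = 0.00966), and Cisd1, an outer membrane iron-sulfur protein, fell by 1.58 (edgeR adjusted p = 0.00547). Slc25a37, mitoferrin 1, fell by 1.06 (edgeR adjusted p = 0.0175, and 0.0883 without IP 2). The cluster scaffold Iscu, the most abundant, had 97.7 ± 6.64 CPM in IP and 130 ± 69.4 CPM in unbound (edgeR adjusted p = 0.379). Of the siderophore genes, Slc22a17, the proposed receptor of lipocalin 2, fell from 196 ± 31.9 to 59.9 ± 33.6 CPM, a log2 fold change of -1.71 ± 0.35 (edgeR adjusted p = 0.0033).

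**Figure D4:**
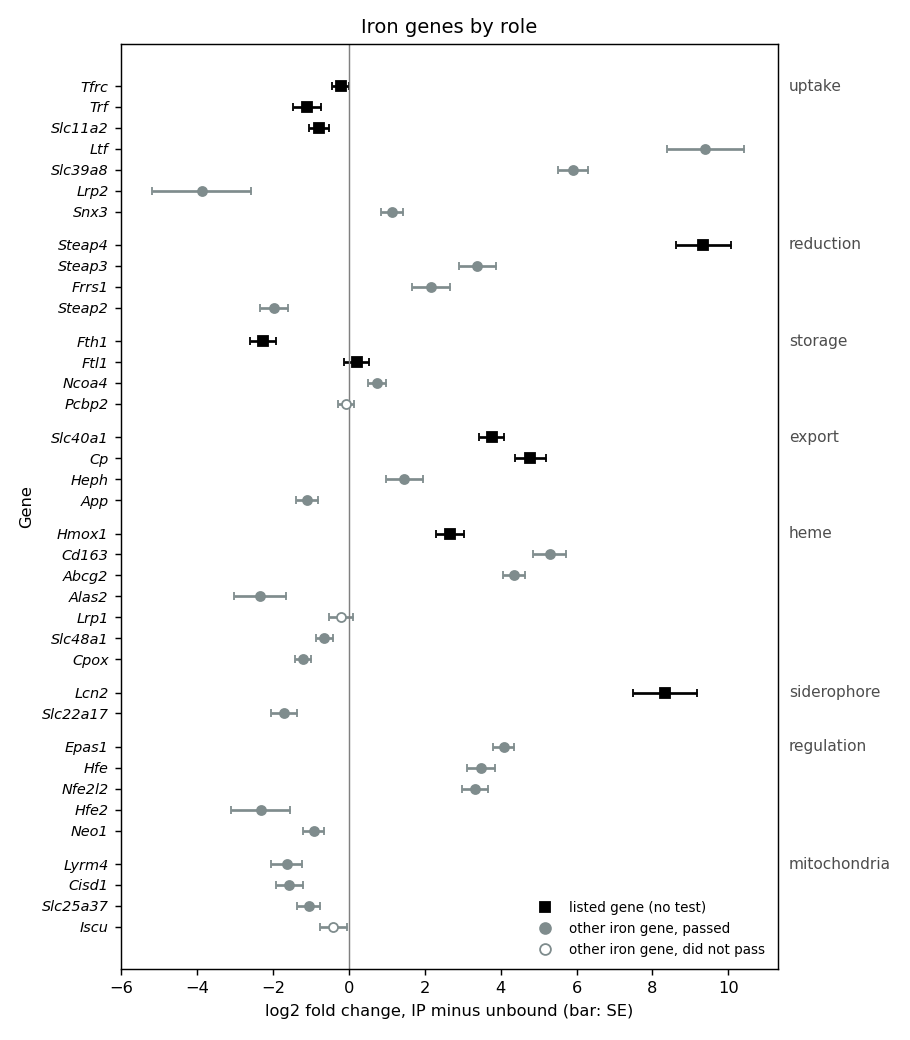
Log2 fold change, IP minus unbound, with its SE, for the 10 listed genes (black squares) and the other iron genes named in the text (grey circles, filled where they passed edgeR's test), grouped by role. Genes of uptake, reduction, storage, export, heme, siderophores and regulation lie on both sides of 0, and the mitochondrial genes shown lie below it. Among all 19 mitochondrial genes tested the highest log2 fold change was 0.51.

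The genes whose profiles over the 7 libraries were most like each member were found as the smallest root mean square difference of centred log2 CPM, among 11361 other genes with a mean of at least 5 CPM. Ly6a, Cyyr1 and Eng were closest to Steap4 (0.37 to 0.45), and Lyve1, Foxf1 and Bank1 to Lcn2 (0.72 to 0.81). Thsd1, Anxa2 and Slc16a9 were closest to Slc40a1 (0.21 to 0.24), Pik3cg, Parp14 and Tlr13 to Cp (0.27 to 0.31), and Zbed3, Tor3a and H2-D1 to Hmox1 (0.15 to 0.19). Nsg1, Stmn4 and Resp18 were closest to Fth1 (0.07 to 0.14), Srbd1, Txn2 and Ggact to Ftl1 (0.10 to 0.15), and Pcnxl2, Enpp2 and Slc9a8 to Trf (0.13 to 0.16). Zfp316, Bivm and Agpat5 were closest to Tfrc (0.09 to 0.11), and Dclk2, Btrc and Fam120c to Slc11a2 (0.09 to 0.10). Between members, Trf and Slc11a2 were the most alike (0.40) and Fth1 and Lcn2 the least (5.44).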

How the data were processed

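RNA was sequenced from 3 IP and 4 unbound libraries. The deposited values are raw counts, whole numbers by symbol. Per the submitters' processing notes, STAR 2.0.0e and HTSeq were used with build mm10. Which annotation, strand setting and filter were applied is not given in the sources used here. The 6 rows that name no gene were left out. Of everything counted, 13.4% to 18.6% fell in no gene in IP and 11.3% to 12.9% in unbound, and 1.43% to 1.63% in IP and 7.26% to 11.5% in unbound was ambiguous between genes.

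Counts were fitted with edgeR 4.0.16 in R 4.3.3 (filterByExpr, TMM, robust quasi-likelihood test, 2-sided, Benjamini-Hochberg over all genes tested, threshold 0.05). The test was checked on simulated data. Alternatives were RLE or no scaling, other filters, DESeq2 1.42.0, limma 3.58.1 voom, a replicate block, the index, dropping the 10 most abundant genes, and leaving out each library. The members and lists were chosen with earlier results of these data known. Other iron genes were named by rule: in each role up to 3 that passed with the largest absolute log2 fold change, the most abundant, and any that passed against the majority. Alike profiles used log2 CPM with a prior count of 2 and passed over provisional symbols. No pair of libraries of a group agreed within sampling noise (chi-square per degree of freedom 82.5 to 1288). Coordinates and sequences come from GENCODE M21 (GRCm38). Counting intervals and floors cover counting error only.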

Additional observations from a re-analysis of the deposited data

Results flagged for a closer look

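Among the 37 iron genes named, 5 had an unbound library far from the other 3 by Dixon's criterion, which chance meets in about 1 of 20 groups. Lcn2 had 0.600 CPM in unbound 4, against 0.0344 to 0.0877 CPM in the others. Ltf had 0.0176 CPM in unbound 4, a single count, against 0 in the others. Ftl1 had 599 CPM in unbound 2, against 247 to 301 CPM, and Epas1 had 88.6 CPM in the same library, against 136 to 144 CPM. Lrp2 had 2.71 CPM in unbound 1, against 0.275 to 0.494 CPM.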

How the results depend on the processing

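No other iron gene named that passed changed sign under any alternative run. These genes were named in part for large log2 fold changes, so the choice itself favoured this. For the 10 members, which carry no test, the log2 fold changes over all alternatives ran from -2.57 to -1.84 for Fth1, -1.60 to -0.76 for Trf, -1.04 to -0.42 for Slc11a2, -0.56 to -0.02 for Tfrc and -0.20 to 0.80 for Ftl1. They ran from 3.58 to 3.98 for Slc40a1, 4.43 to 5.25 for Cp, 2.42 to 2.85 for Hmox1 and 7.61 to 9.84 for Lcn2. Those of Steap4 depend on the prior count.

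With the replicate number as a block, 12 other iron genes were lower in place of 19. IP and unbound libraries of the same number share an index, but the labels do not say that they came from the same homogenate. Deviations from the group means correlated at -0.03, 0.04 and 0.16 for pairs 1, 2 and 4. Between libraries of unlike number they correlated at -0.19 to 0.20. With so few libraries these values cannot decide whether the numbers pair the libraries, so both counts are given. Within ACAGTG (4 libraries) 2190 genes were higher and 1650 lower, and 10 and 9 of the other iron genes. Leaving out single libraries gave 2796 to 4050 higher and 1751 to 3632 lower genes, and 12 to 20 and 10 to 19 other iron genes. For the index, library size only gave 2 genes, no low-count filter 97, DESeq2 291, and leaving out single libraries 0 to 711, the highest without unbound 1. The cause was not tested. Of the 24 other iron genes that passed and are named, 11 lost the call in at least 1 alternative, 9 of them without a single library. Genes under about 0.059 CPM are at or under 3 counts.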
